A study of Homo sapiens with 27 samples.

Results

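The 48 genes described here encode the machinery that copies DNA and the enzymes that supply its nucleotides. They were taken by name from the list given for this gene group, and all 48 were found among the 58735 genes of the deposited tables and passed the filter on low values in both cell lines. The study measured gene expression by RNA-seq in HuH-7 and JHH-7, 2 human liver cancer cell lines, after CRISPR knockout of genes of the fibroblast growth factor receptor (FGFR) pathway. KLB encodes beta-klotho, a co-receptor that FGFR4 needs to respond to the hormone FGF19. In each line the control was labelled wild type and carried a non-targeting guide (sgNTC). The knockouts were of KLB (sgKLB), of FGFR4 (sgFGFR4) and of FGFR3 and FGFR4 (sgFGFR3/4), and in JHH-7 also of FGFR1, FGFR3 and FGFR4 (sgFGFR1/3/4). Every group had 3 libraries labelled as biological replicates, which gives 12 libraries of HuH-7 and 15 of JHH-7, all grown in DMEM with serum and antibiotics. The labels do not say whether a knockout line was a clone or a pool, nor whether the replicates came from separate knockouts, so p-values measure the spread between these libraries.

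A cell prepares for replication in G1, when the origin recognition complex, CDC6 and CDT1 load the MCM2 to MCM7 helicase onto DNA, while geminin (GMNN) blocks CDT1 once S phase has begun. MCM10, CDC45 and the GINS complex then activate the helicase, the polymerases copy both strands with the sliding clamp PCNA, and thymidylate synthase, thymidine kinase and ribonucleotide reductase supply the precursors. Most of these genes are transcribed in late G1 and S phase under E2F transcription factors, so their RNA is commonly read as a sign of cycling cells. In bulk RNA, fewer cells in S phase and less RNA per cell cannot be told apart.

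Promoter sequences were shown for 5 members because they hold the E2F motif of this gene group and because the data separate them: PCNA, GINS2, MCM6 and E2F1 changed in opposite directions in the 2 lines after KLB knockout, and CDT1 changed in the same direction. Each line gives the 250 bases before the first listed transcription start, 5′ to 3′ on the gene's strand, from RefSeq on GRCh38.p14, with matches to the E2F motif in capitals.
PCNA, chr20:5126623-5126872, minus strand: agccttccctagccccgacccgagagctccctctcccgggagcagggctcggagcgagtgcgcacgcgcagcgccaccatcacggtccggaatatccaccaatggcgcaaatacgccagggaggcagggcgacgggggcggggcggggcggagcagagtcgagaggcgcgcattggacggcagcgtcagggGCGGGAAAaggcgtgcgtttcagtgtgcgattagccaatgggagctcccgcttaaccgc
GINS2, chr16:85688955-85689204, minus strand: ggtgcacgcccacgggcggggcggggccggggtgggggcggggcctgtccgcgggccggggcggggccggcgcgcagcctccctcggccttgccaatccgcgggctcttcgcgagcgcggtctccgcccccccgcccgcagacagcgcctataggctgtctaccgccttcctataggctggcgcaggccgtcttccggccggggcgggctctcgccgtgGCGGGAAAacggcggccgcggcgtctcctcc
MCM6, chr2:135876444-135876693, minus strand: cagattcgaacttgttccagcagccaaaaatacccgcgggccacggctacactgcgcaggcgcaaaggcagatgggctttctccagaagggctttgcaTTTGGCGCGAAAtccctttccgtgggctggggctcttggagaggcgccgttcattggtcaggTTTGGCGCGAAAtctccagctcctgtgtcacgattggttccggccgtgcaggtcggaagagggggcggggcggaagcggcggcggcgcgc
E2F1, chr20:33686386-33686635, minus strand: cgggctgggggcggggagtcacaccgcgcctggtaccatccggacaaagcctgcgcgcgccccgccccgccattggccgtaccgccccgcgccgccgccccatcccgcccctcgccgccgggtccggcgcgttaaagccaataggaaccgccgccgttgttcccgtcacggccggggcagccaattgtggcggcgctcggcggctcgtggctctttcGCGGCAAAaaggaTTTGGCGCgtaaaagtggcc
CDT1, chr16:88803539-88803788, plus strand: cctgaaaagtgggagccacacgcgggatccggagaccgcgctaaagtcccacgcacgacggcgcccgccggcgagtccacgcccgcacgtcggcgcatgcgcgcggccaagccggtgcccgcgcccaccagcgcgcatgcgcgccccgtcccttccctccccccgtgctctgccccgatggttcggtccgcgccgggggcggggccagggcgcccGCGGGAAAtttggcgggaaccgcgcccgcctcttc

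The E2F motif was searched as TTTGGCGC, TTTCCCGC, TTTCGCGC or TTTGCCGC on either strand, from 250 bases before to 50 after the start, and overlapping matches were counted separately. RefSeq gave a promoter for 42 of the 48 members, 11 of them with more than 1 listed start. At the first listed start of each gene, 20 of the 42 (47.6%) held at least 1 match, against 3.33% of the promoters of 27305 genes and 5.12% of those of 10969 genes tested here. Over all listed starts it was 23 of 42 (54.8%) against 3.99% of all genes, with GMNN, DUT and TIPIN added by another start. Of 27 matches at the first starts of members, 21 lay within 100 bases of the start. CCAAT, the core of the NF-Y site, was found on either strand at the first start of 25 of 42 members (59.5%). That compares with 35.7% of all genes and 36.8% of those tested here. TTTGAA, the core of the CHR element of later cell cycle genes, was found at the first start of 1 of 42 (2.38%). Among all genes it was 15.4%, and among those tested here 9.92%. At any start TTTGAA was found for 2 of 42 (4.76%) against 18.2% of all genes. After KLB knockout the median log2 changes of members with and without an E2F match at the first start were -0.80 (n = 20) and -0.64 (n = 22) in HuH-7, and 0.44 and 0.36 in JHH-7; the 22 include GMNN, DUT and TIPIN. A match describes the letters and is not a measured binding site.

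Expression levels are in FPKM, which counts fragments relative to transcript length and library size, and changes are differences of log2(FPKM + 1) with their standard error (SE) from limma. A gene was called changed at a Benjamini-Hochberg adjusted p under 0.05 over all genes tested in the line. Depth estimated from the step of low values was 14.4 to 27.8 M fragments per library. RNA of the targeted genes was lower in its knockouts without overlap: mean KLB was 17.1 and 6.52 FPKM in sgNTC and sgKLB of HuH-7 and 15.5 and 7.25 in JHH-7, and FGFR4 was 239 and 87.4 in sgNTC and sgFGFR4 of HuH-7 and 148 and 69.7 in JHH-7. FGFR3 was at 118 and 46.7 FPKM in sgNTC and sgFGFR3/4 of HuH-7 and at 89.9, 43.9 and 34.6 in sgNTC, sgFGFR3/4 and sgFGFR1/3/4 of JHH-7, where FGFR1 was at 16.2 and 9.22 in sgNTC and sgFGFR1/3/4. RNA that remains after an edit does not measure the protein. The 3 JHH-7 sgFGFR1/3/4 libraries were closer to each other than those of any other group (median squared deviation 1.85 to 3.08 times counting noise per pair, against 2.9 to 8.61 elsewhere). Results that rest on this group were therefore also computed with its libraries averaged to 1 sample. A list of 9 hepatocyte and liver cancer markers, AFP among them, summed to 5840 to 6310 FPKM per library in HuH-7 sgNTC and 8940 to 9900 in sgKLB. In JHH-7 the sums were 14300 to 16400 and 31100 to 31800. ALB was the largest part of each sum. With KLB knockout 7 and 8 of the 9 were called higher, against 8.98% and 15.5% of all genes in HuH-7 and JHH-7. TTR went the other way in HuH-7, not called in sgKLB (-0.24, without overlap) and called lower in sgFGFR3/4 (-0.49). In the other knockouts the sums were 6630 to 7370 (sgFGFR4) and 8340 to 8650 (sgFGFR3/4) in HuH-7, and 18400 to 19600, 19200 to 21600 and 22500 to 23800 (sgFGFR1/3/4) in JHH-7. In JHH-7 sgFGFR1/3/4, 6 of the 9 were called higher and 1 lower, against 20.8% and 19% of all genes. SERPINA1 lay below all controls there (-0.22). The sum of 11 markers of other cell types was 380 to 420 FPKM in HuH-7 sgNTC, 339 to 350 in sgKLB, 433 to 463 in sgFGFR4 and 394 to 425 in sgFGFR3/4. In JHH-7 it was 265 to 328 in sgNTC, 189 to 208 in sgKLB and 261 to 381 in the other knockouts. Most of it was LUM and CD14 in HuH-7 and LYZ in JHH-7. Of the list, CDH5, VWF, PTPRC, CD3E and DCN stayed at or below 0.74 FPKM in every library. The part of these lists in the results was not tested.

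In HuH-7, most members that passed the test in a knockout fell, from 15 of 48 in sgFGFR4 to 41 in sgKLB. In JHH-7 most of those that passed rose, from 6 in sgFGFR3/4 to 40 in sgFGFR1/3/4. The median over the 48 members in the single libraries was -0.72, -0.67 and -0.69 in HuH-7 sgKLB and -0.29, -0.24 and -0.27 in sgFGFR4, each as the log2 difference from the sgNTC mean of the line. It was -0.50, -0.43 and -0.47 in HuH-7 sgFGFR3/4. In JHH-7 it was 0.35, 0.39 and 0.42 in sgKLB, 0.49, 0.38 and 0.18 in sgFGFR4, 0.34, 0.26 and 0.23 in sgFGFR3/4, and 0.70, 0.66 and 0.67 in sgFGFR1/3/4. All 9 HuH-7 knockout libraries were thus below, and all 12 JHH-7 knockout libraries above, the 6 sgNTC libraries, which lay between -0.10 and 0.04. The knockouts of a line were all set against the same 3 sgNTC libraries, so these differences are not independent of each other.

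Counting members whose 3 knockout libraries all lay beyond the 3 sgNTC libraries gave the same picture without a model. In HuH-7, 42 lay below and 1 above in sgKLB (15.7% and 18% of all genes), 29 and 1 in sgFGFR4 (12.8% and 20.3%) and 37 and 1 in sgFGFR3/4 (14.2% and 18.8%). In JHH-7, 29 lay above and 3 below in sgKLB (20.5% and 22.3%), 30 and 1 in sgFGFR4 (11.8% and 10.6%), 23 and 0 in sgFGFR3/4 (9.74% and 8.57%) and 43 and 2 in sgFGFR1/3/4 (28.3% and 24.9%).

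**Figure D1:**
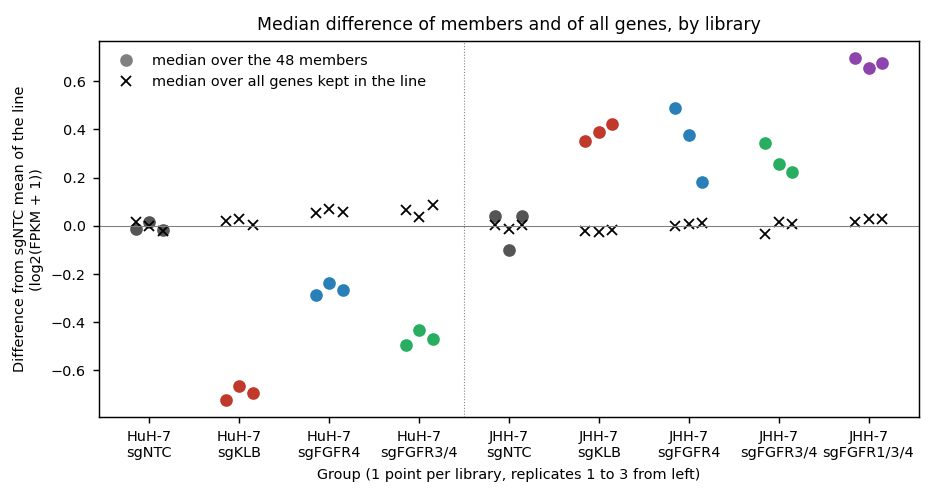
The y axis is the median difference from the sgNTC mean of the line on the log2(FPKM + 1) scale, and the x axis is the 9 groups with 1 point per library; circles are the 48 members and crosses are all genes kept in the line. The members' medians lie below 0 in every HuH-7 knockout library, down to -0.72, and above 0 in every JHH-7 knockout library, up to 0.70, while the crosses stay near 0.

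**Figure D2:**
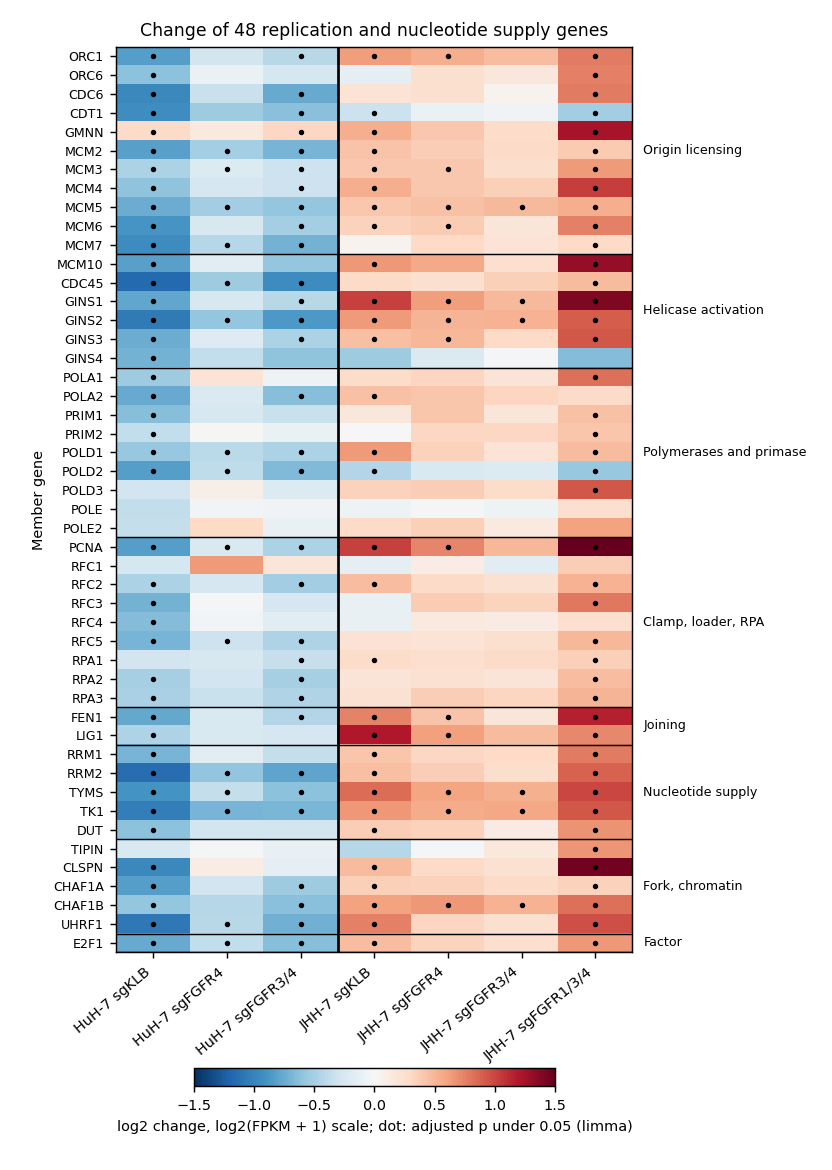
Rows are the 48 members grouped by role, columns are the 7 comparisons of a knockout with sgNTC, and color is the log2 change on the log2(FPKM + 1) scale, with a dot where the adjusted p of limma was under 0.05. In HuH-7 sgKLB 41 members were called lower, and in JHH-7 sgFGFR1/3/4 40 were called higher; CDT1 and POLD2 fell in both of these columns.

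After KLB knockout in HuH-7, 41 of the 48 members fell and 1, GMNN, rose. Over all 14716 genes tested, 17.6% were called, with 8.62% lower and 8.98% higher. The members' median log2 change was -0.71, against 0.02 for all genes. The fall covered each step of replication: 10 of 11 licensing genes, 6 of 6 helicase activators, 6 of 9 polymerase and primase subunits, 7 of 9 genes of the clamp, its loader and single-strand binding, both genes of Okazaki fragment joining, 5 of 5 nucleotide supply genes, 4 of 5 fork and chromatin genes, and E2F1.

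The largest fall in HuH-7 was that of CDC45, the helicase subunit loaded at origin firing (chromosome 22, 19479459 to 19520612, plus strand). It stood at 28.3, 31.3 and 30.8 FPKM in the sgNTC libraries and 11.9, 14.3 and 12.5 in sgKLB. These groups lie far apart, with a log2 change of -1.17 (SE 0.11, adjusted p = 3.2e-05). RRM2 (chromosome 2, 10120698 to 10131419, plus strand), the S phase subunit of ribonucleotide reductase, was at 123, 128 and 132 FPKM in sgNTC and 63.1, 55.6 and 52.9 in sgKLB. It fell by 1.15 on the log2 scale (SE 0.08, adjusted p = 4.84e-06). UHRF1, which brings the maintenance methyltransferase DNMT1 to newly copied DNA, was at 37.1, 36.6 and 34.4 FPKM against 17, 15.7 and 17.3. It fell by 1.07 (SE 0.07, adjusted p = 2.51e-06). GINS2, a GINS subunit, was at 17.9, 18.9 and 21.2 FPKM against 8.77, 8.17 and 9.16, and also fell by 1.07 (SE 0.10, adjusted p = 3.8e-05). TK1, thymidine kinase of the salvage pathway, was at 85, 92.7 and 86.8 FPKM against 39.6, 44.5 and 43.2, and fell by 1.04 (adjusted p = 5.09e-05). For these genes no sgKLB library reached the lowest control. CLSPN, the claspin adaptor of the fork and of checkpoint signalling, was at 10.1, 6.76 and 6.83 FPKM against 3.26, 3.58 and 3.66, a change of -0.96 (SE 0.16, adjusted p = 0.00171).

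Abundant licensing genes fell as well. MCM7 was at 242, 251 and 270 FPKM in HuH-7 sgNTC and 132, 131 and 132 in sgKLB (-0.95 on the log2 scale). CDC6, the helicase loader, was at 47.2, 43.7 and 46.8 FPKM against 26, 23 and 20.6 (-0.96). MCM6, another helicase subunit, was at 49.9, 49.8 and 46.5 against 23.8, 28 and 26.2 (-0.88). The control and knockout libraries of these 3 genes did not overlap. E2F1, the transcription factor that drives many of the members, was at 46.3, 48.4 and 51.8 FPKM against 27.7, 26.1 and 32.2 (-0.75, adjusted p = 0.000149). The members with the smallest changes were TIPIN, a fork protection factor (-0.22, adjusted p = 0.318), RFC1, the large clamp loader subunit (-0.26), and RPA1, a single-strand binding subunit (-0.28, adjusted p = 0.0753). POLD3, POLE and POLE2 were likewise not called. GMNN moved the other way: it was at 58.5, 53.9 and 49.9 FPKM in sgNTC and 60.5, 71.4 and 66.9 in sgKLB, a rise of 0.29 (SE 0.09, adjusted p = 0.0458). That call ended in 4 of 6 fits that left out 1 library, with an adjusted p of up to 0.157 without sgKLB replicate 2.

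FGFR4 knockout in HuH-7 lowered fewer members past the test. Of the 48, 15 fell and 0 rose, with a median of -0.25, against 3.71% of all genes called (1.64% lower, 2.07% higher) and a median of 0.06. TK1 was at 52, 46.8 and 64.7 FPKM in sgFGFR4, below all 3 controls (-0.70, adjusted p = 0.0301). RRM2 was at 90.6, 76.2 and 88.1 (-0.59, adjusted p = 0.0301) and GINS2 at 14.1, 11.9 and 11.9 (-0.58, adjusted p = 0.0359). Each of these groups lies below its controls. CDC45 changed by -0.54 (adjusted p = 0.0393), MCM5 by -0.52 (adjusted p = 0.0317) and MCM2 by -0.51 (adjusted p = 0.0362). The smallest changes were those of RFC3 (-0.01), TIPIN (-0.02), PRIM2 (0.02) and POLE (-0.04). RFC1 had the highest value, 0.64, without being called (adjusted p = 0.109): its libraries stood at 13.6, 11.6 and 8.84 FPKM in sgNTC and 17.4, 18.4 and 18.3 in sgFGFR4. The calls in this knockout rest on few libraries. Leaving out sgNTC replicate 2 or 3 or sgFGFR4 replicate 1 or 2 brought the count to 0, and leaving out sgFGFR4 replicate 3 brought it to 1. TK1, RRM2, GINS2, CDC45, MCM5 and MCM2 were each called in 1 or 2 of 6 such fits, with an adjusted p of up to 0.148.

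In HuH-7 sgFGFR3/4, 30 members fell and 1 rose, with a median of -0.47, against 16.1% of all genes called (7.22% lower, 8.9% higher) and a median of 0.07. CDC45 was at 16.6, 16.7 and 12.6 FPKM, below its controls at 28.3 and above (-0.94, adjusted p = 0.000316). GINS2 was at 9.68, 11.2 and 9.86 (-0.86, adjusted p = 0.000426) and RRM2 at 68.2, 74.7 and 76.9 (-0.80). CDC6 changed by -0.76 (adjusted p = 0.0003), UHRF1 by -0.72 (adjusted p = 9.81e-05) and MCM7 by -0.70 (adjusted p = 8.09e-05). By role, 9 of 11 licensing genes and E2F1 fell. Of the polymerase and primase subunits 3 of 9 fell, and POLE (-0.05), POLA1 (-0.08) and PRIM2 (-0.10) were among the smallest changes, with TIPIN (-0.11). GMNN, at 71.1, 59.9 and 71.3 FPKM, rose by 0.31 (adjusted p = 0.0379), a call that ended in 4 of 6 fits without 1 library (adjusted p up to 0.132, without sgFGFR3/4 replicate 3).

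In JHH-7, KLB knockout was followed by higher RNA of most members: 28 rose and 2, CDT1 and POLD2, fell. The median was 0.39, against -0.02 for all genes, of which 31.9% were called, 15.5% higher and 16.4% lower. All 5 nucleotide supply genes rose, with both joining genes, 7 of 11 licensing genes, 4 of 6 helicase activators, 4 of 5 fork and chromatin genes and E2F1. The 7 licensing genes include GMNN, which blocks CDT1. Of the polymerase and primase subunits only POLA2 and POLD1 rose, and of the clamp and loader group 3 of 9.

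**Figure D3:**
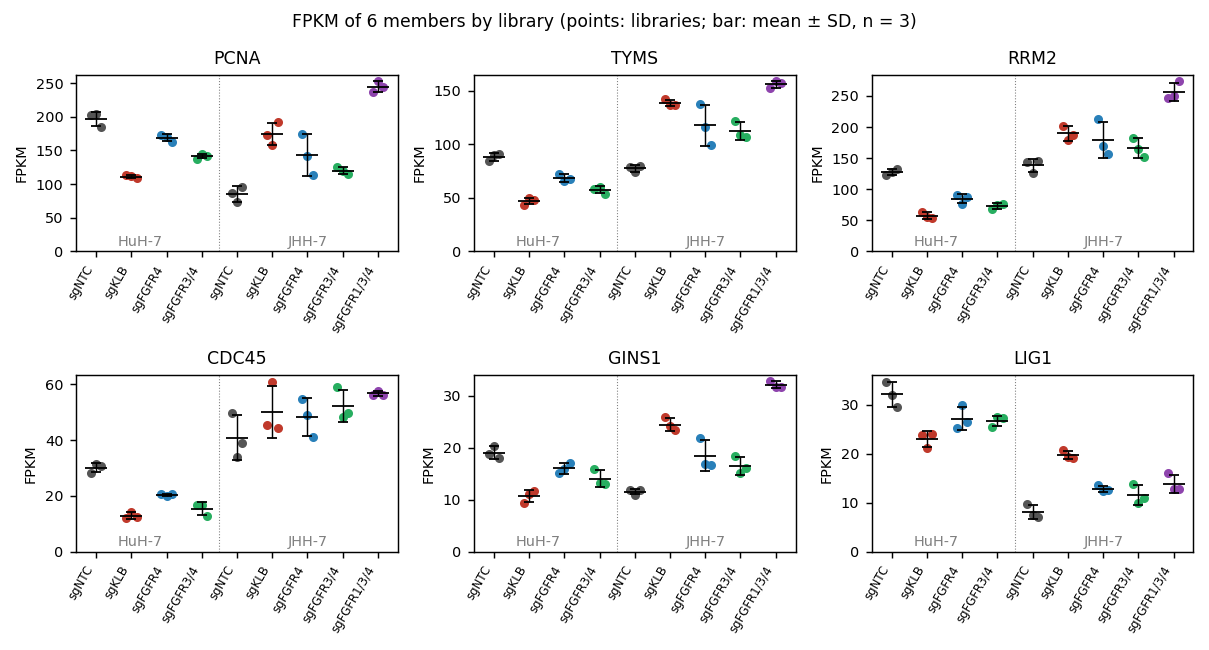
FPKM (y axis, from 0) of PCNA, TYMS, RRM2, CDC45, GINS1 and LIG1 in the 9 groups (x axis), with 1 point per library and the mean ± SD (n = 3). PCNA, TYMS, RRM2 and GINS1 lie below the controls in HuH-7 sgKLB and above them in JHH-7 sgKLB and sgFGFR1/3/4, with PCNA near 111 and 175 FPKM in sgKLB of the 2 lines.

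LIG1 (chromosome 19, 48115445 to 48170603, minus strand), the ligase that joins Okazaki fragments, had the largest change in JHH-7 sgKLB. Its libraries stood at 9.8, 7.39 and 7.09 FPKM in sgNTC and 20.7, 19.4 and 19.1 in sgKLB, a rise of 1.20 (SE 0.14, adjusted p = 9.14e-06). In HuH-7 the same gene had fallen from 34.8, 32.1 and 29.6 to 23.9, 21.2 and 24.1 FPKM (-0.46). PCNA (chromosome 20, 5114953 to 5126626, minus strand) was at 87.2, 73 and 95.7 FPKM in JHH-7 sgNTC and 173, 159 and 192 in sgKLB, a rise of 1.03 (SE 0.13, adjusted p = 2.79e-05). The opposite held in HuH-7, with 203, 204 and 186 FPKM in sgNTC and 113, 111 and 109 in sgKLB (-0.82, adjusted p = 2.51e-06). GINS1 (chromosome 20, 25407727 to 25452628, plus strand), another GINS subunit, was at 11.8, 10.9 and 11.9 FPKM in JHH-7 sgNTC and 25.8, 24.1 and 23.4 in sgKLB, a rise of 1.02 (adjusted p = 3.79e-06). TYMS (chromosome 18, 657604 to 673578, plus strand), which makes dTMP, was at 78.5, 74.1 and 79.8 FPKM against 142, 137 and 137, a rise of 0.83 (SE 0.09, adjusted p = 7.57e-06). In HuH-7 it was at 84, 90.3 and 90.5 against 43.4, 49.8 and 47.8 (-0.90). The 2 lines thus started from similar TYMS levels and ended on opposite sides. UHRF1 rose by 0.76 (SE 0.14, adjusted p = 0.000599) and FEN1, the flap endonuclease, by 0.74 (SE 0.10, adjusted p = 3.26e-05). The smallest changes were those of PRIM2 (0.01), MCM7 (0.05, adjusted p = 0.723), POLE (-0.08) and RFC3 (-0.11). MCM7 had thus fallen by 0.95 in HuH-7 and was at 209, 206 and 214 FPKM in JHH-7 sgKLB, beside 197, 201 and 207 in its controls.

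FGFR4 knockout in JHH-7 raised 13 members and lowered 0, with a median of 0.35, against 4.25% of all genes called (2.42% higher, 1.83% lower) and a median of 0.01. PCNA was at 175, 142 and 113 FPKM, all above the highest control at 95.7 (0.73, adjusted p = 0.00667). CHAF1B, a subunit of the histone chaperone CAF-1, was at 8.36, 6.99 and 7.38 FPKM against 4.32, 5.38 and 3.82 (0.65, adjusted p = 0.00667). GINS1 was at 21.9, 16.9 and 16.6 FPKM (0.63, adjusted p = 0.00515). The 3 genes did not overlap with their controls, but replicate 1 was the highest library in each of PCNA, CHAF1B and GINS1, and in TYMS. TYMS was at 138, 116 and 99.8 FPKM (0.59, adjusted p = 0.00315) and TK1 at 134, 135 and 115 (0.56, adjusted p = 0.00545). LIG1 was called at 0.61 (adjusted p = 0.0195), but in 2 of 6 fits without 1 library (up to 0.0952, without sgFGFR4 replicate 1). Without sgFGFR4 replicate 3, whose median over the members was 0.18, 23 members were called. Without sgNTC replicate 1 there were 7, and without sgNTC replicate 2 or sgFGFR4 replicate 1 or 2 there were 5. POLE (-0.01), TIPIN (-0.03), CDT1 (-0.10) and RFC1 (0.11) changed least.

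FGFR3 and FGFR4 knockout in JHH-7 raised 6 members and lowered 0, with a median of 0.26, against 3.53% of all genes called (2.24% higher, 1.29% lower) and a median of 0.00. TK1 was at 151, 117 and 125 FPKM against 80.7, 88.1 and 91.3 (0.58, adjusted p = 0.00345), and TYMS was at 122, 108 and 107 (0.53, adjusted p = 0.00533). Both stand above every control. GINS2 (0.52, adjusted p = 0.0172), CHAF1B (0.52, adjusted p = 0.0238), MCM5 (0.48, adjusted p = 0.0141) and GINS1 (0.48, adjusted p = 0.0218) were the others. Without 1 library, CHAF1B and GINS1 were each called in 1 of 6 fits, with an adjusted p of up to 0.0938 (without sgNTC replicate 3) and 0.0712 (without sgFGFR3/4 replicate 1), GINS2 in 3 and MCM5 in 4. The count of members called was 3 without sgNTC replicate 1 or 2 or sgFGFR3/4 replicate 1. PCNA, at 126, 120 and 115 FPKM, lay above its controls without being called (0.50, adjusted p = 0.0506). The smallest changes were those of GINS4 (-0.02), CDC6 (0.05) and CDT1 (-0.05).

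The triple knockout had the most members called in JHH-7. In sgFGFR1/3/4, 40 members rose and 2, CDT1 and POLD2, fell, with a median of 0.67, against 39.8% of all genes called (20.8% higher, 19% lower) and a median of 0.03. PCNA was at 237, 254 and 245 FPKM, a rise of 1.52 (SE 0.13, adjusted p = 8.85e-07). CLSPN was at 14.2, 16.1 and 16.3 FPKM against 6.22, 4.54 and 4.55 (1.45, SE 0.15, adjusted p = 6e-06), and GINS1 was at 32.8, 31.7 and 31.6 (1.40, adjusted p = 2.35e-07). These libraries lie well above every control of the line. MCM10, which acts with CDC45 when the helicase is activated, was at 16.1, 16.6 and 16.8 FPKM against 6.52, 4.67 and 7.04 (1.32, SE 0.16, adjusted p = 1.65e-05). GMNN was at 110, 117 and 111 FPKM against 55, 40.4 and 47.8 (1.23, SE 0.12, adjusted p = 2.11e-06). FEN1 was at 77.3, 82.5 and 77.4 FPKM against 33.7, 35.1 and 35.2 (1.17, SE 0.10, adjusted p = 5.92e-07). Every role took part: 10 of 11 licensing genes, GMNN among them, 5 of 6 helicase activators and 5 of 9 polymerase and primase subunits. The others were 7 of 9 of the clamp and loader group, all joining, nucleotide supply, and fork and chromatin genes, and E2F1. POLE (0.23, adjusted p = 0.15), RFC4 (0.26, adjusted p = 0.0702) and POLA2 (0.29, adjusted p = 0.0978) were not called, and MCM7 changed least among those called (0.30, adjusted p = 0.0189, and 0.0581 without sgFGFR1/3/4 replicate 3). With the 3 libraries averaged to 1 sample, 33 members were called.

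The difference between the lines was tested directly, as the change in JHH-7 minus that in HuH-7. For KLB knockout 40 of 48 members differed, all with the higher change in JHH-7, against 19.7% of all genes (9.8% higher), and the median difference was 1.12. The smallest adjusted p-values were those of TYMS (1.73, adjusted p = 5.49e-10), FEN1 (1.50, adjusted p = 2.63e-09), GINS1 (1.80, adjusted p = 6.97e-09), PCNA (1.85, adjusted p = 8.98e-09) and GINS2 (1.71, adjusted p = 1.4e-08). The 8 not called were GMNN, GINS4, PRIM2, POLD3, POLE, POLE2, RFC1 and TIPIN. Counted by calls in each line, 26 members fell in HuH-7 and rose in JHH-7, 2 fell in both, and 1 rose in both. The share of all genes with such paired calls was not computed. Singly, 8.62% of all genes were called lower in HuH-7 sgKLB and 15.5% higher in JHH-7 sgKLB. For FGFR4 knockout 27 members differed, all higher in JHH-7, against 4.12% of all genes (2.37% higher), with a median of 0.63, led by TK1 (1.25, adjusted p = 9.62e-05) and TYMS (0.95, adjusted p = 0.000177). For FGFR3 and FGFR4 knockout 32 differed, all higher in JHH-7, against 7.21% (3.77% higher), with a median of 0.69, led by TYMS (1.14, adjusted p = 1.23e-05) and GINS2 (1.38, adjusted p = 1.34e-05). The 3 tests share the controls of each line and are not independent of each other.

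**Figure D4:**
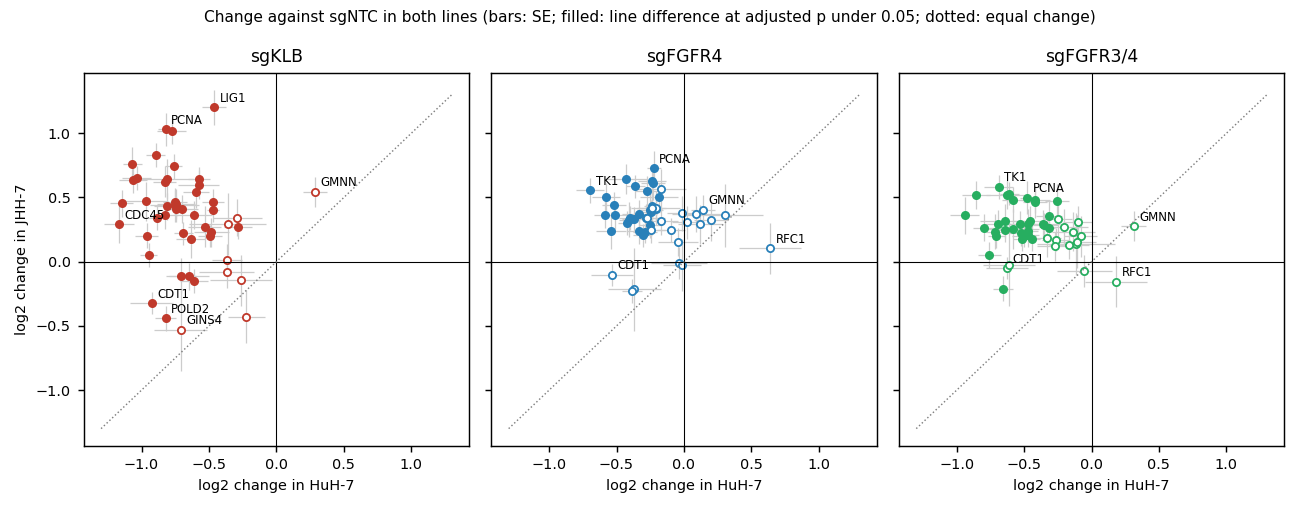
Each point is 1 member, with its log2 change against sgNTC in HuH-7 on the x axis and in JHH-7 on the y axis, for sgKLB, sgFGFR4 and sgFGFR3/4; bars are SE, filled points have a line difference at an adjusted p under 0.05 (limma), and the dotted line is equal change. Most points lie in the upper left part, lower in HuH-7 and higher in JHH-7, with 38 of 48 there for sgKLB. Of all genes tested, 47% were below 0 in HuH-7 sgKLB and 52% in JHH-7 sgKLB. For sgKLB, 9 members, CDT1, POLD2 and GINS4 among them, are below 0 in both lines and 1, GMNN, is above 0 in both.

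Not all members followed the split between the lines. After KLB knockout 9 of the 48 were below 0 in both lines and 1, GMNN, was above 0 in both. The 9 were CDT1, POLD2, GINS4, ORC6, TIPIN, POLE, RFC1, RFC3 and RFC4. Only CDT1 and POLD2 were called lower in both lines. TIPIN was at 11.7, 10.4 and 13.9 FPKM in JHH-7 sgNTC and 9.08, 7.56 and 9.32 in sgKLB, without overlap. Its change there (-0.43) was not called. CDT1, the licensing factor that geminin blocks (chromosome 16, 88803213 to 88809258, plus strand), was at 45.2, 56.3 and 61.5 FPKM in HuH-7 sgNTC and 32, 25.3 and 26.7 in sgKLB (-0.93, adjusted p = 0.00166). In JHH-7 it was at 65.6, 71.3 and 58.4 in sgNTC and 53, 52 and 50 in sgKLB (-0.32, adjusted p = 0.00907), and at 44.7, 46.1 and 44.5 in sgFGFR1/3/4 (-0.52, adjusted p = 0.000272). In both lines the KLB knockout libraries lay below all controls. The triple knockout value of CDT1 was -0.19 after correction for transcript length and GC content (adjusted p = 0.0241). POLD2, the second subunit of polymerase delta (chromosome 7, 44114681 to 44124358, minus strand), was at 103, 110 and 115 FPKM in HuH-7 sgNTC and 61.2, 58.8 and 64.2 in sgKLB (-0.82, adjusted p = 2.5e-05). In JHH-7 it was at 82.7, 86.8 and 79.2 against 58.9, 62.2 and 61.5 (-0.44, SE 0.10, adjusted p = 0.00298), and at 54.5, 62.3 and 51 in sgFGFR1/3/4 (-0.56, adjusted p = 0.000394). POLD1, the catalytic subunit of the same polymerase, was called higher in both of these JHH-7 knockouts. The size of the KLB effect still differed between the lines for CDT1 and POLD2, which were among the 40 called.

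GMNN (chromosome 6, 24774931 to 24786099, plus strand) was the only member called higher in both lines after KLB knockout. In JHH-7 it was at 55, 40.4 and 47.8 FPKM in sgNTC and 69.1, 68.7 and 70.8 in sgKLB (0.54, adjusted p = 0.00229), and its change did not differ detectably between the lines (difference 0.26, adjusted p = 0.276). GINS4 fell in HuH-7 sgKLB (-0.71, adjusted p = 0.0243) and was lower by its mean in JHH-7 sgKLB without being called (-0.53, adjusted p = 0.236). Its JHH-7 controls stood at 27.6, 12.8 and 40.7 FPKM and spanned the sgKLB libraries at 20.1, 19.4 and 11.7. GINS1, GINS2 and GINS3, its partners in the complex, rose in JHH-7 sgKLB.

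**Figure D5:**
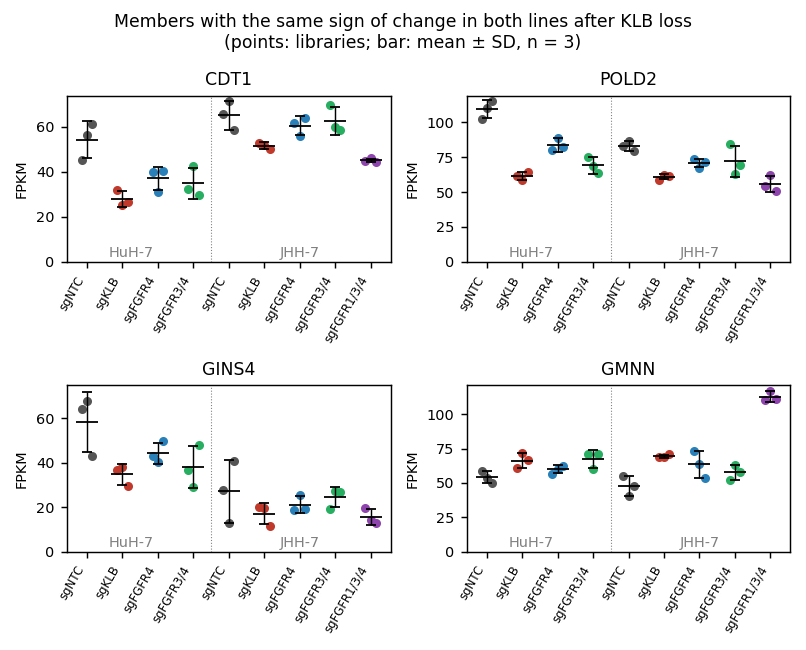
FPKM (y axis, from 0) of CDT1, POLD2, GINS4 and GMNN in the 9 groups (x axis), with 1 point per library and the mean ± SD (n = 3). CDT1 and POLD2 are lower in sgKLB than in sgNTC of both lines, GMNN is higher, up to 117 FPKM in JHH-7 sgFGFR1/3/4, and the JHH-7 controls of GINS4 spread from 12.8 to 40.7 FPKM.

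Subunits of one complex did not always pass the test together. All of MCM2 to MCM7 fell in HuH-7 sgKLB, by 0.47 (MCM3) to 0.95 (MCM7) on the log2 scale, and all rose in JHH-7 sgFGFR1/3/4, from 0.30 (MCM7) to 1.04 (MCM4). In JHH-7 sgKLB all but MCM7 rose. Of the 2 subunits of the origin recognition complex among the 48 members, ORC1 was at 11.7, 11.8 and 12 FPKM in HuH-7 sgNTC and 6.04, 5.97 and 6.74 in sgKLB (-0.83, adjusted p = 6.93e-05), and at 11.8, 11.0 and 13.8 in JHH-7 sgNTC and 19.4, 18.5 and 19.8 in sgKLB (0.62, adjusted p = 0.00122). ORC6 fell in HuH-7 sgKLB too (-0.61, adjusted p = 0.00171), but in JHH-7 sgKLB it was not called (-0.15, adjusted p = 0.237), with libraries that overlapped the controls.

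Among the polymerases, POLE and POLE2, the polymerase epsilon subunits that serve the leading strand, were not called by limma in any of the 7 comparisons with sgNTC. The closest was POLE2 in JHH-7 sgFGFR1/3/4 (0.61, adjusted p = 0.0593). POLD1, the catalytic subunit of polymerase delta, fell in HuH-7 sgKLB (-0.57, adjusted p = 0.000557) and rose in JHH-7 sgKLB (0.64, adjusted p = 0.000116), where POLD2 fell. POLD3, an accessory subunit, was called only in JHH-7 sgFGFR1/3/4 among these 7 (0.93, adjusted p = 0.000153). POLA1, the catalytic subunit of polymerase alpha, fell in HuH-7 sgKLB (-0.53, adjusted p = 0.0108), and the primase subunits PRIM1 (-0.63, adjusted p = 0.00159) and PRIM2 (-0.37, adjusted p = 0.0372) fell with it. In JHH-7 these 3 rose in sgFGFR1/3/4, by 0.83, 0.44 and 0.41, and were not called in sgKLB.

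Not all clamp loader subunits passed the test in JHH-7 sgKLB. RFC2 rose (0.47, adjusted p = 0.00268). RFC3 (-0.11, adjusted p = 0.597), RFC4 (-0.11, adjusted p = 0.456) and RFC5 (0.22, adjusted p = 0.0762) were not called. All RFC5 libraries of sgKLB still lay above the controls, and the subunits were not tested against each other. In HuH-7 sgKLB all 4 fell, by 0.47 (RFC2) to 0.71 (RFC3) on the log2 scale. RPA2 and RPA3, which with RPA1 coat single-stranded DNA, fell in HuH-7 sgKLB (-0.50 and -0.48) and rose in JHH-7 sgFGFR1/3/4 (0.47 and 0.51). Both subunits of ribonucleotide reductase moved in the same direction in each line after KLB knockout: RRM1 fell in HuH-7 (-0.70, adjusted p = 0.0019) and rose in JHH-7 (0.41, adjusted p = 0.00907), beside -1.15 and 0.46 for RRM2. DUT, which keeps dUTP out of DNA, fell in HuH-7 (-0.61, adjusted p = 0.00849) and rose in JHH-7 (0.36, adjusted p = 0.0214). CHAF1A, the large CAF-1 subunit, fell by 0.83 in HuH-7 (adjusted p = 0.000123) and rose by 0.36 in JHH-7 (adjusted p = 0.0184).

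Knockouts of the same line were also set against each other. In HuH-7, sgFGFR3/4 had 3 members lower than sgFGFR4, CDC6 (-0.42, adjusted p = 0.0376), PCNA (-0.25, adjusted p = 0.0394) and UHRF1 (-0.31, adjusted p = 0.0487), against 1.62% of all genes called (0.598% lower). HuH-7 sgKLB had 4 members lower than sgFGFR3/4, PCNA (-0.35, adjusted p = 0.0236), MCM6 (-0.37, adjusted p = 0.0419), FEN1 (-0.32, adjusted p = 0.0431) and UHRF1 (-0.35, adjusted p = 0.0492), against 0.55% (0.333% lower, 0.217% higher). PCNA showed this order in its libraries, at 173, 171 and 163 FPKM in sgFGFR4, 138, 144 and 142 in sgFGFR3/4 and 113, 111 and 109 in sgKLB. Leaving out any 1 library brought the first count to 0 or 1, and the second to 0 without any of the 3 sgKLB libraries or sgFGFR3/4 replicate 1 or 3. In JHH-7, sgFGFR3/4 and sgFGFR4 differed in 0 members by limma (2 at an unadjusted p under 0.05), against 0.0133% of all genes. The closest was FEN1, with a difference of -0.25 and a 95% interval from -0.46 to -0.05 (adjusted p = 0.951), followed by MCM6 at -0.21 (adjusted p = 0.964).

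In JHH-7, 27 members were higher in sgFGFR1/3/4 than in sgFGFR3/4 and 2 lower, against 32.2% of all genes called (16.8% higher, 15.4% lower). FEN1 (0.98, adjusted p = 7.57e-06), GINS1 (0.92, adjusted p = 3.07e-05), GMNN (0.96, adjusted p = 4.92e-05), CLSPN (1.21, adjusted p = 6.22e-05) and PCNA (1.02, adjusted p = 6.92e-05) had the smallest p-values among those higher. CDT1 (-0.46, adjusted p = 0.00101) and POLD2 (-0.35, adjusted p = 0.0126) were lower, the latter not after length and GC correction (adjusted p = 0.105). Averaging the triple knockout to 1 sample left 14 calls of 29. JHH-7 sgKLB had 24 members lower than sgFGFR1/3/4 and 1 higher, against 35.7% of all genes (19.7% lower, 15.9% higher). ORC6, a subunit of the origin recognition complex, showed the clearest gap: it was at 41.3, 34.8 and 40.1 FPKM in sgKLB, 68.5, 74.9 and 77.2 in sgFGFR1/3/4 and 46.8, 38.2 and 44.5 in sgNTC (-0.91, adjusted p = 9.43e-06). RFC3 (-0.90, adjusted p = 0.000256), CLSPN (-0.98, adjusted p = 0.000281), GMNN (-0.69, adjusted p = 0.000492) and CDC6 (-0.58, adjusted p = 0.000641) followed. LIG1 was the exception, higher in sgKLB by 0.48 (adjusted p = 0.0121), a call that was lost with the length and GC correction (adjusted p = 0.122) and without sgFGFR1/3/4 replicate 3 (adjusted p = 0.0519). Averaging left 6 calls of 25.

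Before any knockout the lines differed in 33 members, a share close to the 64% of all genes called. By direction, 10 were higher and 23 lower in JHH-7 sgNTC than in HuH-7 sgNTC, against 35% and 28.9% of all genes. The values of each line were deposited separately, so a difference between the lines cannot be told from an effect of that split. The mean control level ran from 4.45 FPKM (CHAF1B) to 254 (MCM7) in HuH-7 and from 4.51 to 202 for the same 2 genes in JHH-7. RFC1 was the highest by difference among those with the smallest p-values (1.51, adjusted p = 4.54e-06), with MCM5 (0.56), RFC4 (0.68), TIPIN (0.93) and POLA2 (0.79). Lower in JHH-7 were FEN1 (-1.54, adjusted p = 9.82e-14), MCM3 (-1.33), POLD1 (-1.40), LIG1 (-1.88, adjusted p = 2.24e-12) and MCM4 (-1.58, adjusted p = 3.36e-11). E2F1 was lower there as well (-1.16).

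Other genes of replication and nucleotide supply, not among the 48, were read from lists of the same pathways. Of 28 further replication factors, 16 fell and 1 rose in HuH-7 sgKLB (8.62% and 8.98% of all genes). Those that fell included DNMT1 (-0.64), the nuclease EXO1 (-1.04) and the histone chaperones ASF1B (-0.76) and SSRP1 (-0.56). In JHH-7 sgKLB, 7 rose, with TICRR (0.54) and ASF1B (0.50), against 15.5% of all genes. The 4 that fell, a share near the 16.4% of all genes, included SSRP1 (-0.47) and DBF4 (-0.66), the activator of the CDC7 kinase. In JHH-7 sgFGFR1/3/4, 21 rose and 2 fell, POLD4 (-1.28) and SSRP1 (-0.23), against 20.8% higher and 19% lower of all genes.

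A list of 24 further nucleotide genes holds enzymes of purine and pyrimidine synthesis and also genes of salvage and dNTP breakdown. Of the 24, 3 rose and 11 fell in JHH-7 sgKLB, where 15.5% of all genes were called higher and 16.4% lower, and 10 rose and 6 fell in sgFGFR1/3/4 (20.8% and 19% of all genes). In HuH-7 sgKLB 11 of 23 tested fell and 0 rose (8.62% and 8.98% of all genes). GART, an enzyme of de novo purine synthesis, was at 63.4, 60.4 and 62.5 FPKM in JHH-7 sgNTC and 31.5, 33.8 and 31.7 in sgKLB, a fall of 0.92 on the log2 scale (adjusted p = 5.17e-08). ADSL (-0.71), IMPDH2 (-0.71), which makes guanine nucleotides, and CTPS1 (-0.61), which makes CTP, fell too. DCK (0.45), which salvages deoxynucleosides, and SAMHD1 (0.79), which degrades dNTPs, were among those that rose. In JHH-7 KLB knockout, RNA of the dNTP enzymes among the members rose while that of these 4 nucleotide synthesis enzymes fell.

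A list of 10 genes of the G1 to S step holds cyclins, CDK2 and other activators, and also the CDK inhibitors CDKN1A and CDKN1B. In HuH-7 sgKLB 8 of the 10 fell and 1, CDKN1A, rose (8.62% and 8.98% of all genes). In JHH-7 sgKLB 4, CDKN1A among them, rose and 1 fell (15.5% and 16.4% of all genes). SKP2, the ubiquitin ligase subunit that targets the inhibitor p27, had the largest of these changes. It was at 26.3, 24.7 and 27.9 FPKM in JHH-7 sgNTC, 77.6, 88.2 and 78.7 in sgKLB and 79.4, 76.3 and 76.7 in sgFGFR1/3/4 (1.59 and 1.52, adjusted p = 1.75e-08 and 5.5e-08). It was at 52.6, 41.1 and 40.1 in sgFGFR4 and 37, 38.1 and 40.8 in sgFGFR3/4, also above all controls (0.73 and 0.54), and in HuH-7 sgKLB it fell by 0.33. CDKN1A, the p21 inhibitor, was called higher in sgKLB of both lines (0.23 and 0.26). Of 15 genes of the E2F and RB network, 4 fell in HuH-7 sgKLB, against 8.62% of all genes. They were MYBL2 (-0.86), E2F8 (-1.12), E2F2 (-0.90) and TFDP1 (-0.35). In JHH-7 sgKLB 2 of the 15 rose, MYBL2 (0.39) and E2F2 (0.51), a share close to the 15.5% of all genes. The 5 that fell there, among them E2F4 (-0.40), stand against 16.4% of all genes.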

How the data were processed

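Total RNA of 27 libraries was sequenced, and the authors deposited FPKM per gene from RSEM on GRCh38, per the submitters' processing notes; no version or strand setting is stated there. FPKM are not counts, so log2(FPKM + 1) was tested with limma 3.58.1 (trend and robust) in R 4.3.3, per line, over all groups of the line, and in 1 fit over both lines for differences between lines and for the controls. The filter asked for 1 FPKM or more in at least 3 of a line's libraries, which left 14716 genes in HuH-7, 14987 in JHH-7 and 16731 in the joint fit. P-values were adjusted over all of them (Benjamini-Hochberg, 0.05). Members and lists were chosen with earlier results of these data known. For each knockout the 6 called members with the largest change, called members against the majority and up to 4 with the smallest change were named; elsewhere up to 5 (other lists 4) with the smallest p per direction; the remaining members were described by role. Low values were whole multiples of 1 fragment within 0.1 for 87.06% to 91.81%, which gave the depth estimates; no count test was run. On simulated data for HuH-7 sgKLB (14716 genes), 67, 67 and 66 genes were changed by 0.5, 1 and 2 log2 units. Of these, 38.8%, 91% and 97% were recovered. The data themselves had 2591 genes called, so these rates do not measure the recovery in that comparison. Exons of 18 members overlap another gene at 1 FPKM or more (FEN1 with FADS2 and TMEM258, TYMS with ENOSF1, for example), so their reads could be shared; 9 members have named pseudogene copies, none above 1.93 FPKM. Alternatives were a different pseudocount, no filter, quantile or TPM scaling, a length and GC correction, a replicate block, groups fitted alone and leaving out each library. One gene of the nucleotide synthesis list is counted but its values are not reported here.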

Additional observations from a re-analysis of the deposited data

Results flagged for a closer look

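The effect of the same knockout differed between the lines in 40 members for KLB, 27 for FGFR4 and 32 for FGFR3 and FGFR4, each by the limma test of the change in JHH-7 minus that in HuH-7. For KLB the genes with the smallest p-values were TYMS (1.73 log2 units), FEN1 (1.50), GINS1 (1.80), PCNA (1.85) and GINS2 (1.71). For FGFR4 they were TK1 (1.25), TYMS (0.95), GINS2 (1.08), MCM5 (0.96) and RRM2 (0.95). For FGFR3 and FGFR4 they were TYMS (1.14), GINS2 (1.38), TK1 (1.27), MCM5 (1.06) and MCM7 (0.91). These 15 differences were still called in each of the 12 fits that left out 1 library.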

How the results depend on the processing

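Of 4416 recomputed values of 336 member changes, 3989 kept their side of the threshold, 367 lost the call and 60 gained it. The sign turned in 53 values of 27 changes, none of them called before or after, with changes of at most 0.215 in size; RFC3 in HuH-7 sgFGFR4, for example, was -0.01 and became 0.07 with TPM scaling. In HuH-7 sgFGFR4 the 15 called members became 0 without a filter, 8 with quantile scaling, 0 with the replicate block, 0 with the 2 groups fitted alone and 0 to 15 without 1 library. In JHH-7 sgFGFR4 13 became 6 without a filter, 0 fitted alone and 5 to 23 without 1 library. In JHH-7 sgFGFR3/4 6 became 1 fitted alone and 3 to 5 without 1 library. HuH-7 sgFGFR3/4 against sgFGFR4 went from 3 to 0 without a filter, 6 with the length and GC correction, 0 with the replicate block, 0 fitted alone and 0 to 1 without 1 library. HuH-7 sgKLB against sgFGFR3/4 went from 4 to 1, 8, 0, 0 and 0 to 3 in the same order. JHH-7 sgFGFR1/3/4 against sgFGFR3/4 went from 29 to 14 with the triple knockout averaged to 1 sample, chosen after seeing the data, and JHH-7 sgKLB against it from 25 to 16 with the length and GC correction and 6 averaged. The cause was not tested, except that fewer samples enter the fits alone, averaged or without 1 library. The other counts stayed within 1.5 times, among them 38 to 43 in HuH-7 sgKLB and 33 to 44 in JHH-7 sgFGFR1/3/4. TPM scaling moved the median of all genes in HuH-7 sgFGFR3/4 from 0.07 to 0.17 and that of the members from -0.47 to -0.37, and the calls over all genes from 1309 higher and 1062 lower to 2238 and 639. Across genes, the change against sgNTC correlated with GC content in HuH-7 sgFGFR4 (Spearman -0.505), HuH-7 sgFGFR3/4 (-0.315) and JHH-7 sgFGFR1/3/4 (-0.419). For sgKLB it was 0.016 in HuH-7 and 0.057 in JHH-7. Between knockouts the correlation was 0.513 for JHH-7 sgKLB against sgFGFR1/3/4 and -0.473 for JHH-7 sgFGFR1/3/4 against sgFGFR3/4. It was 0.421 for HuH-7 sgKLB against sgFGFR3/4. The part of GC content in the named genes was not tested beyond the length and GC correction. Replicate numbers did not pair the libraries: of 48 correlations of deviations between same-numbered libraries, 0 were over 0.1 (-0.206 to 0.084). The replicate block left the other counts within 1.5 times, with 40 in HuH-7 sgKLB, 29 in JHH-7 sgKLB and 42 in the JHH-7 triple knockout.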
